A study of Mus musculus with 8 samples.

Results

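The data describe 10 genes of Wnt signalling in embryonic mouse skin, the secreted inhibitors Dkk1, Dkk2, Dkk3, Dkk4, Wif1, Sfrp2 and Notum, and the target genes Lef1, Axin2 and Sp5. They were taken by symbol, 10 of 21882 symbols in the tables, and each was represented by 1 transcript. RNA sequencing of C57BL/6 embryos compared 3 pairs of groups. At embryonic day 16.5 (E16.5), whole skin of 2 wild-type libraries was set against 2 libraries labelled Cyp26b1-/-, and the deposited values pool each pair. The later stage, E18.5, has a dermal and an epidermal sample set, each with 1 library labelled En1cre;Cyp26b1f/- and 1 Cyp26b1f/+ control. Cyp26b1 encodes an enzyme that degrades retinoic acid. En1cre acts in cells that have expressed Engrailed 1, while the mutant of that cross also carries 1 null allele in every cell, and its control label names a floxed and a wild-type allele and no Cre. The comparisons ask how skin transcripts differ between libraries labelled as Cyp26b1 mutants and their controls.

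Wnt ligands bind Frizzled receptors and LRP co-receptors, which spares beta-catenin from destruction and lets it act with LEF and TCF factors on target genes. In developing skin this pathway sets where hair follicles form and drives growth of the hair matrix and of the dermal papilla, and secreted inhibitors limit its range. Several inhibitors, among them Dkk1, Dkk4 and Notum, are themselves induced by Wnt signalling in some tissues, so that an inhibitor transcript can also be a pathway readout.

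LEF and TCF proteins recognise short sequences made of CTTTG followed by AA, AT, TA or TT, searched here on both strands in the 250 bases before each RefSeq transcription start (build GRCm38.p6). The promoter table held 7 of the 10 members with 10 start sites, 4 of them of Lef1. Dkk3, Dkk4 and Notum were not in it. The windows of Sp5 (chr2:70474673-70474922, plus strand) and Dkk1 (chr19:30549497-30549746, minus strand) are shown because each held 2 matches, and that of Axin2 (chr11:108920099-108920348, plus strand) because it held 0 although the gene is a standard Wnt readout. All 3 windows lie upstream of the annotated start. They read 5′ to 3′ toward the gene, with the matches in capitals.
Sp5: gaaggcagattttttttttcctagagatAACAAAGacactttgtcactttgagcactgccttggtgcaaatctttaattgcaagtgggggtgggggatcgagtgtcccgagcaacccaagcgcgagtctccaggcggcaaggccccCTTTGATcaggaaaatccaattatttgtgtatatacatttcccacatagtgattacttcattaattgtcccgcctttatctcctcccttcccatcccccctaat
Dkk1: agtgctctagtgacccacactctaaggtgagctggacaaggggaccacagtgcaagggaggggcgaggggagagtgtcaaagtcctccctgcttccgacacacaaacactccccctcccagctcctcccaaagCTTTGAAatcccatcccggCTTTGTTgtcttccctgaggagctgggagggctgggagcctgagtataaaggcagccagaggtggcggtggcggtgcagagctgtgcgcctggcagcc
Axin2: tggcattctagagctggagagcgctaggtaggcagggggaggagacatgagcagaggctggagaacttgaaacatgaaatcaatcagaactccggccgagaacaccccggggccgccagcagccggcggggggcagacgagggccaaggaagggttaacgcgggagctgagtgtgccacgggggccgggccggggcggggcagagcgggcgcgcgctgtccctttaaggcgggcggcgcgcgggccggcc
In Sp5 the matches were CTTTGTT on the opposite strand, 222 to 216 bases before the start, and CTTTGAT 104 to 98 bases before it. In Dkk1 they were CTTTGAA at 117 to 111 and CTTTGTT at 98 to 92 bases before the start. One of the 4 Lef1 windows held a single CTTTGTA, and those of Dkk2, Wif1 and Sfrp2 held none. Of 32851 windows of the same length, 14.8% held at least 1 match and 1.4% at least 2. The Axin2 window was 69.2% GC and the Sp5 window 46% GC, against a median of 52.4%. A match describes the letters and not a bound site.

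Values are FPKM, fragments per kilobase of transcript scaled to the number of fragments sequenced. No spread between libraries could be computed in any comparison, since the E16.5 columns are pooled and each E18.5 group is 1 library, and the labels do not tie the E16.5 libraries to separate animals. Low values of short transcripts fell on steps, with 70.8% to 79.5% of them within 0.2 of a whole multiple in the E18.5 libraries where even spread gives 40%. Each step was picked for its fit to these same values, which by itself raises the share, so 40% is a low mark. By these steps, 1 FPKM on a transcript of 1 kb stood for about 16.8 fragments in control dermis, 33.3 in mutant dermis, 22.7 in control epidermis and 32.3 in mutant epidermis. In the pooled E16.5 columns the share was 57.7% and 48.1%, and no depth was read from them. Cyp26b1 itself, summed over 2 transcripts, was not lower in any library labelled mutant (34.9 and 58.2 FPKM in E16.5 wild-type and labelled-null skin, 54.2 and 101.7 FPKM in control and mutant dermis, 4.97 and 13.7 FPKM in control and mutant epidermis), and these whole-transcript values do not check the alleles. The tissue labels were only partly borne out by markers. Twist2, a dermal gene, was at 387 FPKM in control dermis and 5.34 FPKM in control epidermis, and Pdgfra, Lum, Dcn and Dpt were also higher in control dermis. The keratinocyte markers were mixed. In control dermis and control epidermis, Krt5 was at 6265 and 2634 FPKM, Krt14 at 4276 and 1496 FPKM and Itga6 at 21.3 and 3.78 FPKM. Krt15 (1447 and 1525 FPKM) and Trp63 (41.9 and 39.7 FPKM) were near level, and Cdh1 was lower in dermis (53.4 and 157 FPKM). Keratinocyte transcripts were thus abundant in the control library labelled dermis.

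The 10 members spanned from 2.05 to 186 FPKM in wild-type skin. Sfrp2, which binds Wnt ligands outside the cell, led at 186 FPKM, followed by the ligand-binding inhibitor Wif1 at 46 FPKM, the destruction-complex scaffold Axin2 at 28.1 FPKM and the transcription factor Lef1 at 24.3 FPKM. Dkk3, a divergent Dickkopf relative, stood at 15 FPKM, and Dkk2, Dkk1 and Dkk4, which act on the LRP co-receptors, at 9.43, 6.48 and 5.06 FPKM. Notum, an enzyme that removes the lipid from Wnt ligands, and Sp5, a zinc-finger factor, were lowest at 2.83 and 2.05 FPKM. Sfrp2 thus exceeded Sp5 by far, while the order of close neighbours such as Axin2 and Lef1 or Dkk1 and Dkk4 could not be set against any spread between libraries.

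At E18.5 each member had a higher value in control dermis than in control epidermis. The 2 tables were normalised separately and the labels number the 2 control libraries differently, so these ratios are descriptive. The share of all genes that were higher in control dermis was not computed. The ratio was 55.5 for Sfrp2 (154 against 2.77 FPKM), 23.7 for Sp5 (14.7 against 0.62 FPKM), 22.6 for Dkk2 (2.71 against 0.12 FPKM) and 18.7 for Wif1 (43.2 against 2.31 FPKM). It was smallest for Axin2, 2.97 (53.1 against 17.8 FPKM), and Axin2 was the most abundant member in both epidermal libraries. Lef1 came next in control epidermis at 9.03 FPKM. The members Dkk1, Dkk2, Dkk4 and Sp5 were below 1 FPKM in both epidermal libraries.

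**Figure D1:**
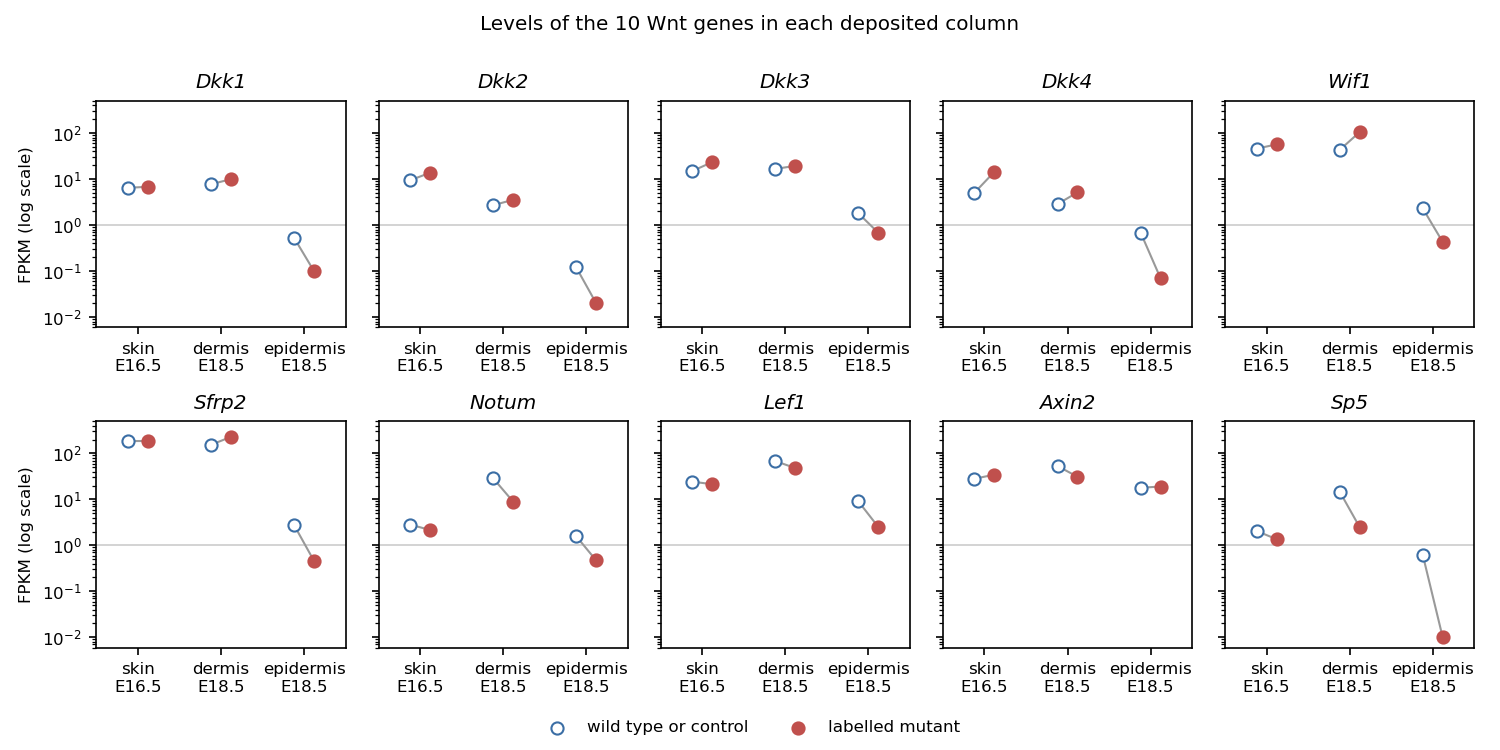
FPKM of the 10 members on a log axis, with open circles for wild type or control and filled circles for the labelled mutant, in pooled E16.5 skin and in single E18.5 dermis and epidermis libraries. Axin2 is the member with similar values in both epidermal libraries (17.8 and 19 FPKM), while the other 9 are lower in the mutant epidermis. The median gene is lower there too (-0.18 on the log2(FPKM + 1) scale).

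In E16.5 skin labelled Cyp26b1-/-, Dkk4 rose and Sfrp2, Notum, Lef1 and Sp5 fell relative to the median gene. Folds are given relative to that median because the whole table was shifted: the median deposited log2 fold of 19608 tested transcripts was 0.47. Rose and fell refer to the deposited Cuffdiff statistic recomputed after subtracting this median, with Benjamini-Hochberg adjustment at 0.05 over these transcripts. By this test 1 member of 10 was called higher and 4 lower, where 8.30% of 16303 tested genes were called higher and 10% lower. The authors' deposited table, without the subtraction, called 3 members higher (Dkk2, Dkk3 and Dkk4) and 0 lower, with 54.6% of all genes called higher and 3.46% lower, so the lower calls rest on the subtraction. At an unadjusted p below 0.05 of the same table, 5 members were higher and 0 lower. The share of all genes at that unadjusted threshold was not computed. At the stricter adjusted threshold 54.6% of all genes were already called higher, so 5 of 10 members is not above the background. The median of the 10 members was -0.26 on the log2(FPKM + 1) scale relative to the median gene, which is 0 by construction.

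Among the inhibitors, Dkk4 went from 5.06 FPKM in wild-type to 14.5 FPKM in labelled-null skin. Its centred deposited log2 fold was 1.04, with an SE of 0.24 implied by the statistic of the authors (adjusted p = 0.00023). Only 1.92% of the 14154 genes of at least 1 FPKM had a higher relative fold. The related Dkk1 was at 6.48 and 6.81 FPKM (-0.40, SE 0.21, adjusted p = 0.19), Dkk2 at 9.43 and 13.8 FPKM (0.07, SE 0.15, adjusted p = 0.83) and Dkk3 at 15 and 23.5 FPKM (0.18, SE 0.15, adjusted p = 0.48), by the authors' statistic after centring, and none passed the test. Within the Dickkopf family, Dkk4 was therefore the one called, and the differences between its fold and those of its relatives were not tested. Wif1 was at 46 and 57 FPKM and did not pass either (-0.17, SE 0.14, adjusted p = 0.49 by the authors' statistic after centring). Sfrp2 had nearly equal values, 185.5 and 185.9 FPKM, and was called lower against a median transcript that was higher (-0.47, SE 0.15, adjusted p = 0.014 by the authors' statistic after centring). Notum fell from 2.83 to 2.16 FPKM (-0.87, SE 0.31, adjusted p = 0.031 by the authors' statistic after centring).

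Of the target genes, Lef1 fell from 24.3 to 21.3 FPKM, a centred deposited log2 fold of -0.66 (SE 0.15, adjusted p = 0.00018 by the authors' statistic after centring). Sp5 fell from 2.05 to 1.36 FPKM (-1.06, SE 0.33, adjusted p = 0.013 by the authors' statistic after centring), and only 3.71% of genes had a lower relative fold. Axin2 was at 28.1 and 34.5 FPKM (-0.18, SE 0.14, adjusted p = 0.43 by the authors' statistic after centring) and did not pass the test. With transcripts centred on those of a like GC content, 2 members were called lower in place of 4, Sfrp2 and Lef1. Notum and Sp5, whose transcripts are 59.9% and 62% GC, lost the call, with relative log2 folds of FPKM + 1 of -0.49 and -0.59 in place of -0.71 and -0.80. Notum also lost it with centring on transcripts of a like level. In the same libraries the hair matrix and inner root sheath markers fell, 7 of 9 tested, with a summed level of 166.5 FPKM in wild-type and 58.7 FPKM in labelled-null skin, and 5 of 8 condensate and papilla markers fell (90.8 and 78.6 FPKM). Lens and retina markers, at 8.23 FPKM summed in wild-type skin, were at 1258 FPKM in labelled-null skin, with 12 of 12 called higher. Of the keratinocyte markers 1 was called higher and 1 lower of 5 tested, and of the fibroblast markers 0 and 2 of 5. Of the cartilage and bone markers 4 were called higher and 1 lower of 8 tested (61.8 and 212.8 FPKM summed), of skeletal muscle markers 0 and 1 of 6, and of melanocyte markers 0 and 1 of 5. The part of these cell types in the member differences was not tested, and in bulk tissue fewer cells of a type and less RNA per cell cannot be told apart.

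**Figure D2:**
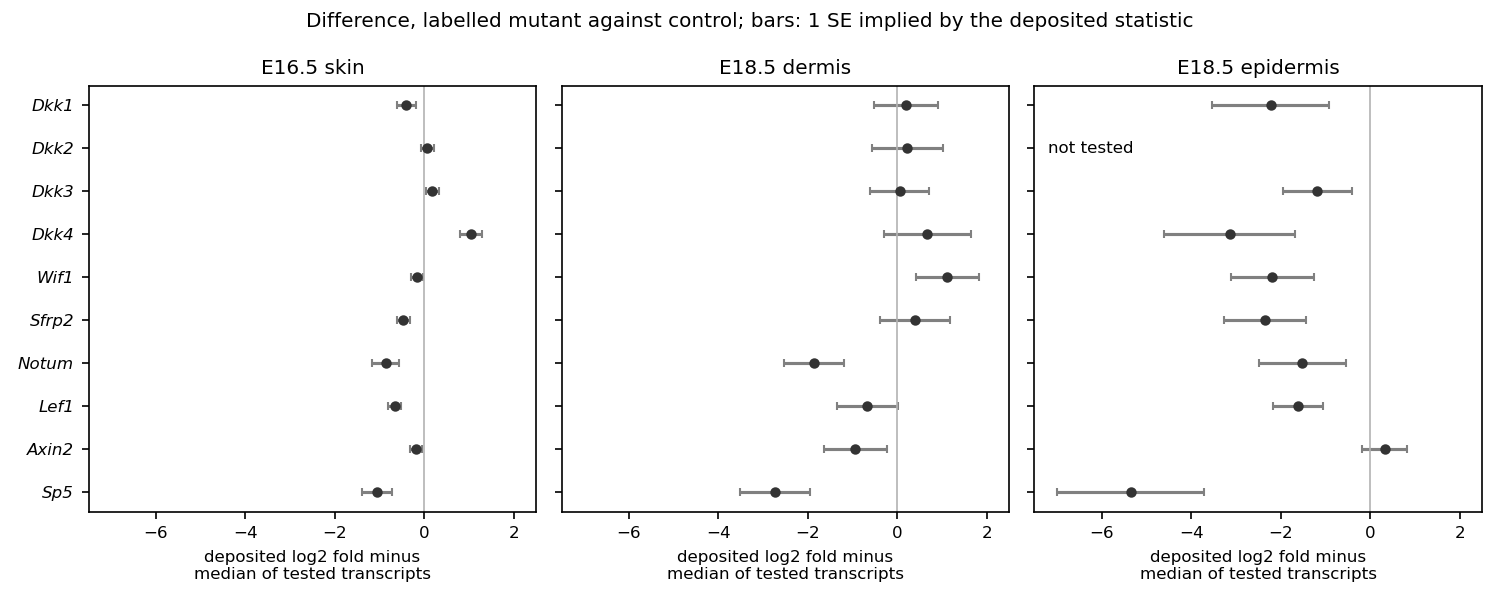
Deposited log2 fold minus the median of tested transcripts for each member (x axis) in the 3 comparisons, with bars of 1 SE implied by the deposited statistic, which is a model error and not a spread between animals. Dkk4 stands to the right in E16.5 skin (1.04), Sp5 and Notum to the left in dermis (-2.73 and -1.85), and the epidermal values of low genes carry wide bars.

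In E18.5 dermis Wif1 had the highest fold of the members and Sp5 and Notum the lowest. Of the 7 inhibitors, 6 had a fold above the median gene and Notum below it, while Lef1, Axin2 and Sp5 were all below it. Relative to genes of a like GC content, Dkk1 (-0.04), Dkk2 (-0.07) and Dkk3 (-0.29) turned below it, and 3 of the 7 inhibitors stayed above. With 1 library per group no test was made, and members are counted by a 2-fold difference of FPKM + 1 relative to the median gene. Of the 10 members, all with at least 1 FPKM, 1 was 2-fold higher (Wif1) and 2 were 2-fold lower (Notum and Sp5), where 14.0% of 13398 genes were 2-fold higher and 13.9% 2-fold lower. These counts are near the background, and the difference between the groups of members was not tested. The median of the members was 0.13 on the same scale.

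Sp5 was at 14.7 FPKM in control and 2.49 FPKM in mutant dermis. Its relative log2 fold of FPKM + 1 was -2.29, and 1.38% of genes were lower. In the authors' deposited table the log2 fold minus the median was -2.73 (SE 0.78 implied by the statistic), and Sp5 was the 1 member that table marked as significant in dermis, where it called 2.56% of genes higher and 1.87% lower. That mark compares these 2 libraries and not the genotypes. Sp5 lies at chr2:70312980-70315783 (mm9, plus strand). Notum, at chr11:120515103-120522151 (mm9, minus strand), was at 28.7 and 8.93 FPKM, a relative log2 fold of -1.70, with 3.93% of genes lower. Axin2 went from 53.1 to 31.1 FPKM (-0.88) and Lef1 from 67.9 to 48 FPKM (-0.62), both inside the 2-fold limit. Axin2 and Lef1 differed from each other by less than their implied SEs of 0.70 and 0.69, and relative to genes of a like GC content their order turned (-0.39 and -0.99).

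Wif1 was at 43.2 FPKM in control and 105.5 FPKM in mutant dermis, a relative log2 fold of 1.15, and 11.2% of genes were higher. The centred deposited log2 fold of Wif1 was 1.12 (SE 0.71). Sfrp2 went from 154 to 228 FPKM (0.44), Dkk4 from 2.87 to 5.14 FPKM (0.54), Dkk1 from 7.75 to 9.97 FPKM (0.20), Dkk2 from 2.71 to 3.55 FPKM (0.17) and Dkk3 from 16.7 to 19.4 FPKM (0.09). Each of these 5 differences was smaller than its implied SE on the deposited scale, which ran from 0.67 for Dkk3 to 0.97 for Dkk4. Relative to genes of a like GC content, the count of 2-fold lower members was 1 (Sp5, -1.41) and that of 2-fold higher members 0, with Notum at -0.82 and Wif1 at 0.76.

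Markers of several cell types differed between the same 2 dermal libraries. The 8 keratinocyte markers summed to 15562.5 FPKM in control and 4758 FPKM in mutant dermis, with relative log2 folds from -2.06 to -0.42 and 6 of 8 at least 2-fold lower. The 9 hair matrix and inner root sheath markers summed to 1561 and 105.3 FPKM, all 9 at least 2-fold lower (-5.87 to -1.90), and the 8 condensate and papilla markers to 349.9 and 162 FPKM, with 2 of 8 at least 2-fold lower. The 5 fibroblast markers with an estimate summed to 536 and 1163 FPKM, 2 of them at least 2-fold higher, and 6 measured skeletal muscle markers of at least 1 FPKM had relative folds from 0.50 to 2.76. Melanocyte markers summed to 186 and 122.9 FPKM, cartilage and bone markers to 66.9 and 28.2 FPKM, and lens and retina markers to 6.78 and 4.73 FPKM. Sox9 made up most of the cartilage and bone sums (53.1 and 14.9 FPKM). Of the 6 such markers of at least 1 FPKM, 5 had a negative relative fold and 1, Col9a1, a positive one (1.14 and 3.49 FPKM). The ranges of these lists are wide and overlap, so a member fold inside a range does not tie the member to that cell type. Wif1 (1.15), for example, lay inside those of the fibroblast (-0.43 to 2.94), skeletal muscle and melanocyte markers (-1.33 to 1.34). Notum (-1.70) lay inside those of the keratinocyte and of the cartilage and bone markers (-1.89 to 0.95), and Sp5 (-2.29) inside that of the matrix markers. The lower end of the cartilage and bone range is Sox9 alone. The part of these cell types in the member differences was not tested.

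**Figure D3:**
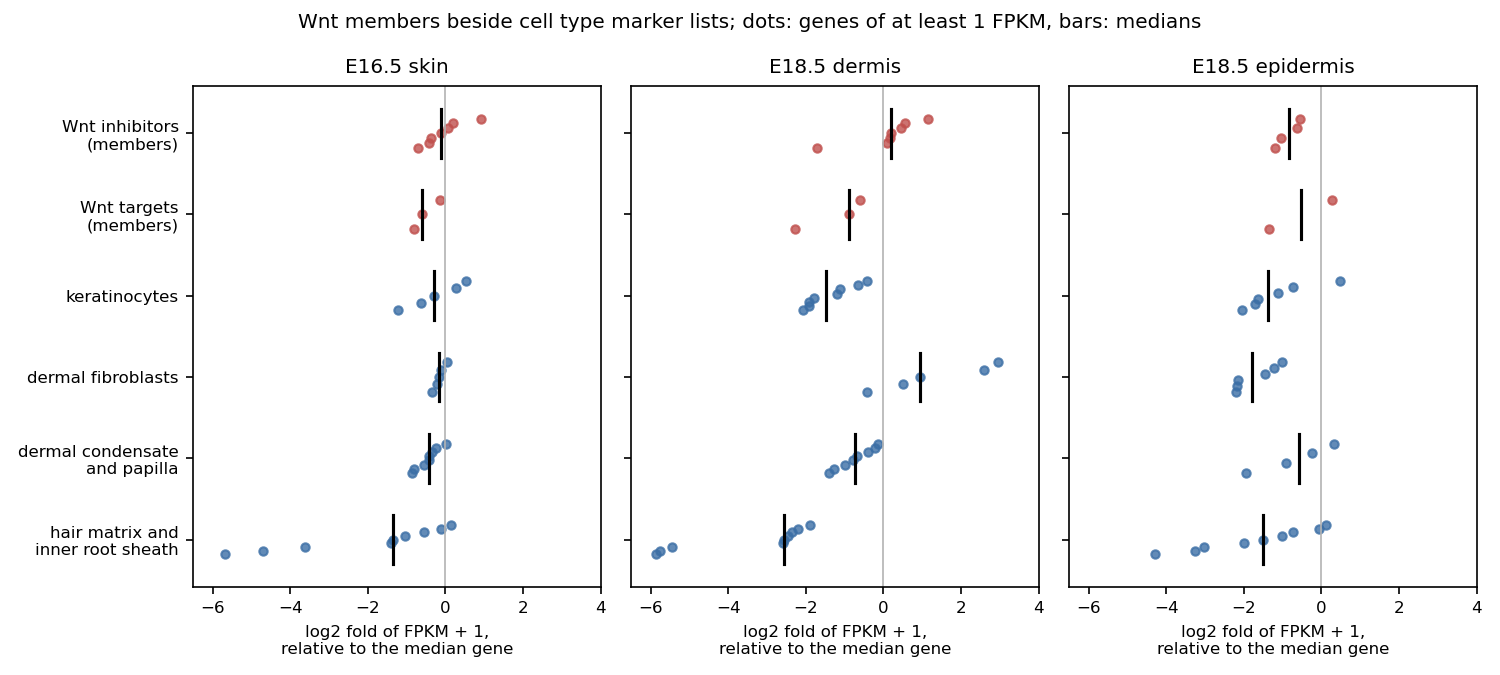
Relative log2 fold of FPKM + 1 for the inhibitor and target members (red) and for 4 marker lists (blue) in each comparison, where dots are genes of at least 1 FPKM and black bars list medians. In dermis the keratinocyte and matrix markers lie to the left (medians -1.49 and -2.56) and fibroblast markers to the right (0.95), and in epidermis the fibroblast markers lie to the left (-1.80).

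In E18.5 epidermis 9 of the 10 members had a lower FPKM in the mutant library, the exception being Axin2. The median gene was also lower there (-0.18 on the log2(FPKM + 1) scale), and relative to it Dkk2 was slightly higher (0.04). The share of all genes with a lower FPKM was not computed. Of the 10, 6 reached 1 FPKM in either library, and of these Wif1, Sfrp2 and Lef1 were 2-fold lower and 0 were 2-fold higher, where 4.86% of 11362 genes were 2-fold lower and 3.49% 2-fold higher. The 6 had a median relative log2 fold of -0.83. The other 4, Dkk1, Dkk2, Dkk4 and Sp5, did not pass the filter on low values and were left out of the count. With a pseudocount of 0.1 FPKM the count of 2-fold lower members was 5, adding Dkk3 and Notum, and relative to genes of a like level it was 1, Lef1.

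Lef1 was at 9.03 FPKM in control and 2.5 FPKM in mutant epidermis, a relative log2 fold of -1.34, and 2.08% of genes were lower. Sfrp2 was at 2.77 and 0.46 FPKM (-1.19) and Wif1 at 2.31 and 0.43 FPKM (-1.03). Notum was at 1.58 and 0.47 FPKM (-0.63) and Dkk3 at 1.80 and 0.68 FPKM (-0.56), below 2-fold on a scale that adds 1 FPKM and so shrinks low genes. Axin2 was at 17.8 and 19 FPKM (0.27). Of the 2 abundant targets in epidermis, Lef1 was therefore lower in the mutant library and Axin2 was not.

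The 4 lowest members rested on few fragments. From the steps above and the longest annotated transcript, Dkk1 corresponded to about 29 fragments in control and 8 in mutant epidermis, Dkk4 to about 20 and 3, Dkk2 to about 10 and 2, and Sp5 to about 30 and 1. Their FPKM were 0.53 and 0.10 for Dkk1, 0.69 and 0.07 for Dkk4, 0.12 and 0.02 for Dkk2, and 0.62 and 0.01 for Sp5. The authors' deposited table marked 2 members as significant in epidermis, Lef1 and Sp5, both lower, where it called 1.17% of genes higher and 3.88% lower. For Sp5 that mark sets about 30 fragments against about 1 in single libraries.

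Dermal genes differed between the same 2 epidermal libraries. The 8 fibroblast markers summed to 329.8 FPKM in control and 62.5 FPKM in mutant epidermis, with 6 of the 6 that reached 1 FPKM at least 2-fold lower (-2.20 to -1.01). The collagen gene Col1a2 was at 80.3 and 15.1 FPKM. Sfrp2, Wif1 and Lef1, the members counted as 2-fold lower, had folds inside that range, which itself begins near the 2-fold line. Their folds also lay inside the wider ranges of the keratinocyte (-2.04 to 0.48) and matrix markers (-4.28 to 0.13). Matrix and inner root sheath markers summed to 181 and 74.2 FPKM, with 6 of 9 at least 2-fold lower, and the 6 keratinocyte markers with an estimate to 5856 and 2051 FPKM, with 4 of 6 at least 2-fold lower. The remaining lists had sums of 30.4 and 21 FPKM for condensate and papilla, 51.3 and 25.5 FPKM for skeletal muscle (3 of 4 markers of at least 1 FPKM were 2-fold lower), 57.1 and 31.6 FPKM for melanocytes, 8.09 and 4.03 FPKM for cartilage and bone, and 11.1 and 3.35 FPKM for lens and retina. Sox9 made up most of the cartilage and bone sums (6.56 and 2.43 FPKM). The part of all these lists in the member differences was not tested.

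**Figure D4:**
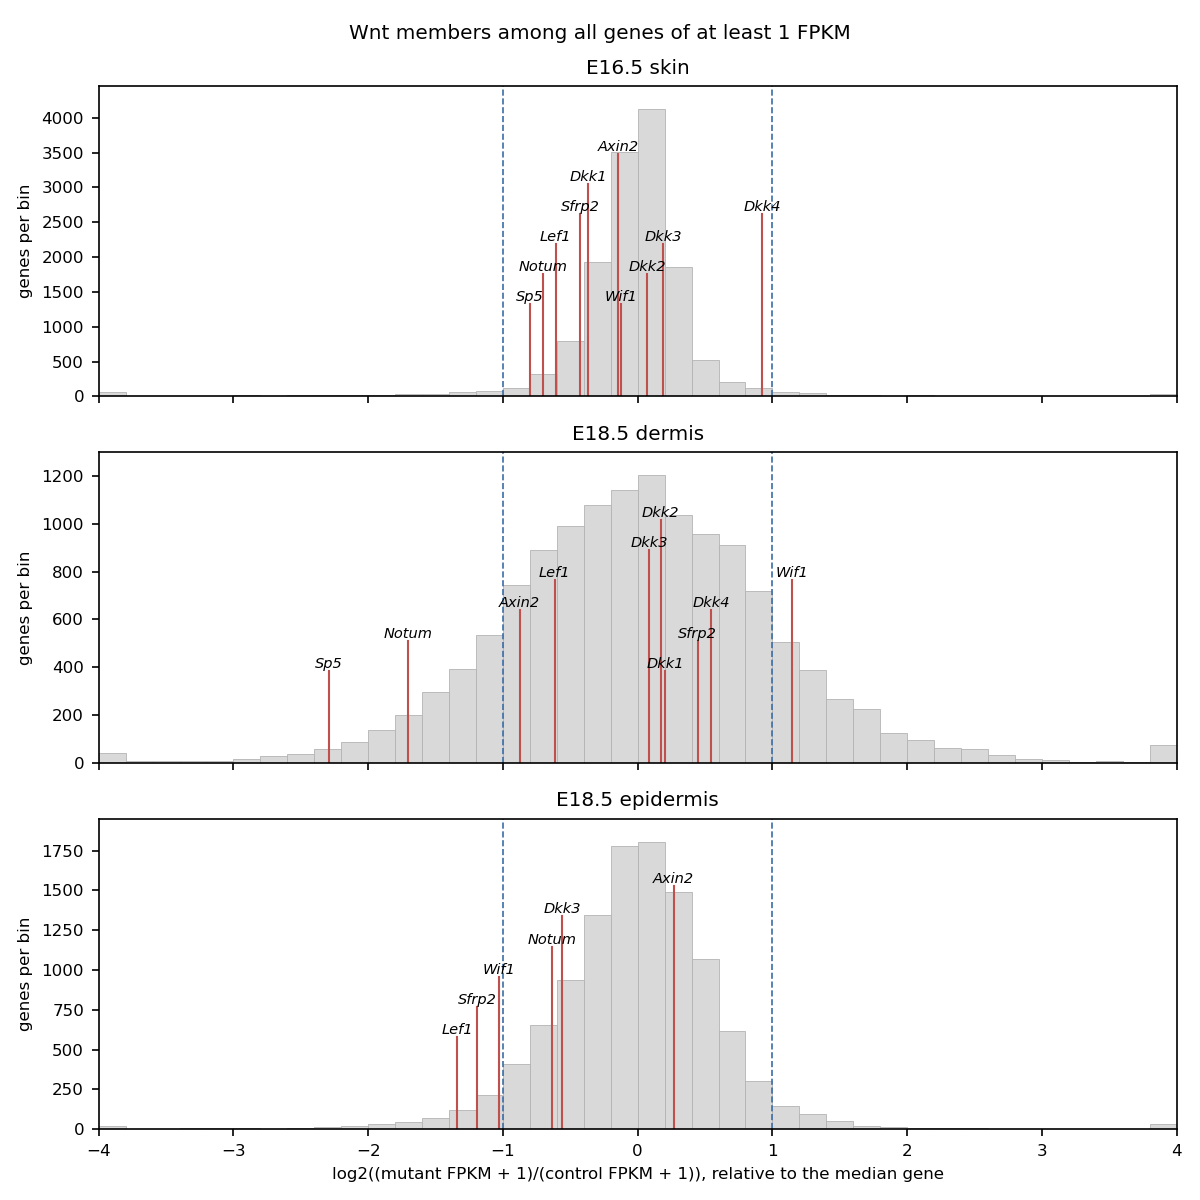
Number of genes of at least 1 FPKM per bin of relative log2 fold (grey), with the members marked by red lines whose height only separates the labels, and dashed lines at a 2-fold difference. Values beyond 4 are drawn in the outermost bins. Dkk4 lies just left of the upper 2-fold line in E16.5 skin (0.93), Sp5 and Notum are on the left in dermis (-2.29 and -1.70), and 5 of the 6 members shown in epidermis are left of 0.

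The members shared chromosomes in 2 cases. Lef1 (chr3:130813389-130926249, mm9) and Dkk2 (chr3:131748256-131843268, mm9) are 822 kb apart, both on the plus strand. Their relative log2 folds were -0.61 and 0.07 in skin and -0.62 and 0.17 in dermis, where both values of Dkk2 lay within its implied SE of 0 and turned negative relative to genes of a like GC content (-0.03 and -0.07). Sfrp2 is on the same chromosome at a distance of 47235 kb from Lef1. Axin2 and Notum are 11703 kb apart on chromosome 11. Dkk4 lies at chr8:23734515-23738018 and Wif1 at chr10:120471060-120537698 (mm9, both plus strand).

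Other genes of the pathway were counted from 6 lists, to be read against the 8.30% of all genes called higher and 10% called lower in E16.5 skin. There, of the Wnt ligands 2 rose and 3 fell of 16 tested, of receptors and agonists 1 rose and 4 fell of 24, and of other secreted or membrane inhibitors 1 rose and 3 fell of 18. The inhibitor that rose was Sfrp5, a relative of Sfrp2 in the same protein family, from 9.74 to 33.3 FPKM (relative log2 fold of FPKM + 1 of 1.25, adjusted p = 3.7e-13 by the authors' Cuffdiff statistic after centring). In the list of further Wnt targets, 19 were tested, of which 2 rose and 5 fell. Those that fell included Nkd1, a Dishevelled-binding feedback inhibitor, from 16.7 to 14.9 FPKM (-0.59) and Apcdd1, a membrane Wnt inhibitor, from 151 to 145 FPKM (-0.49). Bambi, a decoy receptor of the BMP pathway, rose from 7.05 to 27.9 FPKM (1.42). Of TCF factors and cofactors 0 rose and 3 fell of 9 tested, including Tcf7 from 14.8 to 13.8 FPKM, and of destruction complex and Dishevelled genes 1 rose and 0 fell of 17 tested. The lists share Tcf7, Apcdd1, Lgr5, Rnf43 and Znrf3, and most of their lower calls rest on the subtraction of the median. Without it, the authors' deposited table called 1 ligand (Wnt16), 1 receptor (Lgr6) and 1 other inhibitor (Sost) lower and 0 genes of the remaining 3 lists. Sost was below 1 FPKM in both columns (0.75 and 0.30 FPKM). The same table called higher 6 of 16 ligands, 11 of 24 receptors and agonists and 9 of 18 other inhibitors. It also called higher 14 of 17 destruction complex and Dishevelled genes, 3 of 9 TCF factors and cofactors and 5 of 19 other targets. Over all genes it called 54.6% higher and 3.46% lower.

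In dermis, the Wnt ligands had a median relative log2 fold of -1.28, and 9 of 15 with at least 1 FPKM were 2-fold lower and 1 higher, where 13.9% of all genes were 2-fold lower and 14.0% higher. Wnt4 was at 230 and 43.2 FPKM and Wnt10a at 56.4 and 13.7 FPKM in control and mutant dermis. Of other secreted or membrane inhibitors 7 of 16 were 2-fold lower and 1 higher, with Kremen2, a co-receptor partner of Dickkopf proteins, at 169 and 46.7 FPKM, and Sfrp5 at 3.63 and 11.1 FPKM. Receptors and agonists were 2-fold lower in 6 of 21 cases, other Wnt target genes in 3 of 18, TCF factors and cofactors in 1 of 11, and destruction complex and Dishevelled genes in 1 of 17, with 0 higher in these 4 lists. The counts of the last 3 lists are near or below the background. None of these list counts was repeated relative to genes of a like GC content, a setting that moved Notum in dermis from -1.70 to -0.82. The ubiquitin ligase Rnf43, which removes Frizzled receptors, was at 27.4 and 9.29 FPKM. The keratinocyte and matrix markers given above moved in these same libraries.

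In epidermis, other Wnt target genes were 2-fold lower in 5 of 16 cases, with a list median of -0.59, where 4.86% of all genes were 2-fold lower and 3.49% higher. They included the cell cycle gene Ccnd1, at 14.9 FPKM in control and 4.07 FPKM in mutant epidermis, and Tcf7, at 4.24 and 0.75 FPKM. Receptors and agonists were 2-fold lower in 3 of 15 cases, TCF factors and cofactors in 2 of 10, other inhibitors in 1 of 10, destruction complex and Dishevelled genes in 1 of 14 and ligands in 0 of 12, and 0 genes of these lists were 2-fold higher. Counts of 0 or 1 are near the background. Sostdc1, a secreted antagonist of BMP and Wnt signals, was at 32.1 and 12.8 FPKM. Of the 10 other inhibitors, 7 had a negative relative fold and 3 a positive one. Among the latter were Dkkl1, at 458 FPKM in control and 716 FPKM in mutant epidermis (0.82), and Kremen1, at 43.4 and 73.4 FPKM (0.92). The fibroblast and matrix markers given above moved in these same libraries.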

How the data were processed

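RNA was sequenced from 8 libraries of embryonic mouse skin. The submitters' processing notes name the build mm9 and the tools Bowtie 0.12.7.0, TopHat 1.3.2, Cufflinks and Cuffdiff 1.3.0. The sources used here give neither settings nor the use of strand, so overlapping genes cannot be told apart. Per the file headers, the deposited tables list FPKM per transcript for a control and a mutant column, with the authors' log2 fold, test statistic, p-value and q-value.

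FPKM were summed per symbol, leaving out symbols whose status marks no valid estimate. Among listed genes these were Trp63, Krt1, Krt10, Tnnt3, Tcf7l2, Tle3 and Cd44 in skin, Krt1 and Krt10 in epidermis, and Col1a1, Col1a2 and Col3a1 in skin and dermis. Differences are log2((mutant + 1)/(control + 1)) relative to the median over genes reaching 1 FPKM in control or mutant, which was 0.43 in skin, 0.12 in dermis and -0.18 in epidermis. The pseudocount of 1 FPKM understates the change of low genes. The implied SE is the deposited log2 fold divided by its statistic. In skin the statistic was recomputed after subtracting the median deposited fold, converted to a normal p and adjusted by Benjamini-Hochberg. Where Cuffdiff gave no finite fold, its own call was used, and a symbol whose transcripts were called in opposite directions was not counted. This procedure was tested on simulated data. No p-value was computed at E18.5.

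Alternatives were a pseudocount of 0.1 FPKM, no minimum or 5 FPKM, no centring, centring in 20 bins of level or 10 bins of transcript GC content (GENCODE), the highest transcript only and, chosen after seeing the data, the deposited log2 fold without a pseudocount. Centring by level or GC content was applied to the members and not to the pathway or marker lists. The members, the 6 pathway lists and the 8 marker lists were chosen with earlier results of these data known. Named genes were the members, Cyp26b1, defining markers and up to 4 genes of each pathway list with the widest relative fold in a comparison. Sfrp5 in dermis and Sost were added after their values were seen. Computations used Python 3.11.15, pandas 2.3.3 and SciPy 1.17.1.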

Additional observations from a re-analysis of the deposited data

Results flagged for a closer look

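Wif1 differed in opposite directions in the 2 E18.5 tissues. Its relative log2 fold of FPKM + 1 was 1.15 in dermis (43.2 FPKM in control and 105.5 FPKM in mutant) and -1.03 in epidermis (2.31 and 0.43 FPKM), past 2-fold in both, with 1 library per group. Relative to genes of a like GC content the dermal value was 0.76, and relative to genes of a like level the epidermal one was -0.79, both inside 2-fold. The difference between the tissues was not tested. Summed fibroblast markers were higher in the mutant dermis (536 and 1163 FPKM) and lower in the mutant epidermis (329.8 and 62.5 FPKM). These sums cover different genes, 5 markers in dermis and 8 in epidermis. The dermal sum lacks Col1a1, Col1a2 and Col3a1, which made up most of the sum in control epidermis (148.8, 80.3 and 84.7 FPKM). The part of fibroblasts in the difference between the tissues was not tested.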

How the results depend on the processing

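In E16.5 skin the authors' deposited table gave 3 members higher and 0 lower, and centring on a like GC content gave 2 lower. With centring on a like level 3 members were lower (Notum lost), and with transcripts of at least 1 FPKM only the counts were 1 and 4. In dermis, centring on a like GC content gave 0 members 2-fold higher and 1 lower. In epidermis the count of 2-fold lower members was 5 with a pseudocount of 0.1 FPKM and 5 with the deposited log2 fold without a pseudocount (Dkk3 and Notum added), 1 with a minimum of 5 FPKM (fewer members tested) and 1 relative to genes of a like level (Lef1 in both). Apart from the minimum of 5 FPKM, the cause was not tested. No other alternative moved a count of members by over 1.5 times. Of 142 single-member folds under 5 alternatives, 122 moved by less than the implied SE or not at all, and 19 moved by more or had no SE. The remaining 1, which was called, changed sign: Sfrp2 in E16.5 skin, 0.0031 without centring. Use of the highest transcript only gave 30 of the 142 folds and 29 of the 122. Each member had 1 transcript, so that alternative could shift only the median gene. The SE belongs to the deposited log2 fold and the moves to that of FPKM + 1, so the 122 do not measure stability. Dkk1 in epidermis, counted among them, went from -0.2977 to -1.4512 with the pseudocount of 0.1 FPKM. No paired analysis was possible because each E16.5 column combines its 2 libraries and each E18.5 group is a single library. Leaving out a library was not possible for the same reason. Depth limits the epidermal values of Dkk1, Dkk2, Dkk4 and Sp5.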

Other observations

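Lgr6, a receptor for R-spondins that marks stem cells of the hair follicle, was lower in all 3 comparisons, which use separate libraries. It fell from 7.93 to 4.78 FPKM in E16.5 skin (relative log2 fold of FPKM + 1 of -1.06, adjusted p = 6.4e-09 by the authors' Cuffdiff statistic after centring), and was at 55.6 and 10.8 FPKM in control and mutant dermis (-2.39) and at 2.65 and 0.22 FPKM in control and mutant epidermis (-1.40). Of 70 pathway genes with at least 1 FPKM in every comparison, 27 had a negative relative fold in all 3 and 2 a positive one, and Lgr6 was the 1 gene past 2-fold in all 3. Over 10528 genes at the same minimum, 12.9% were negative and 15.2% positive in all 3, and 0.37% were 2-fold lower in all 3. In skin Lgr6 passes 2-fold after centring only (-0.63 without), and the authors' deposited table also called it lower there. Matrix and inner root sheath markers were lower in the same mutant libraries (summed 58.7 against 166.5 FPKM in skin, 105.3 against 1561 FPKM in dermis and 74.2 against 181 FPKM in epidermis), and their part in it was not tested.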
